A study of Saccharomyces cerevisiae with 22 samples.

Results

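The change in newly made RNA over 30 min of rapamycin was followed in WT-aa, the control strain of an Hsf1 depletion study in budding yeast (Saccharomyces cerevisiae). The groups were WT-aa at 30 min of slow depletion (0.15 µM rapamycin) and WT-aa at 0 min (no rapamycin), with 2 arrays each, or 4 of the 22 arrays of the series. They were picked by strain and time as labelled. The study as a whole set Hsf1-aa, whose Hsf1 carries an FRB-yEGFP tag, against WT-aa at 0, 15, 30, 60 and 90 min, and so WT-aa showed what rapamycin and time did without removal of a transcription factor.

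WT-aa derives from BY4742 and is MATalpha. It carries tor1-1, a deletion of FPR1, RPL13A fused to FKBP12 with a NAT marker, an intact MET15, and the markers his3-1, leu2, lys2 and ura3. Hsf1-aa has the same background plus the tag, so all groups compared here share the tor1-1 allele, the missing FPR1 and the FKBP12 fusion. Cells grew in synthetic complete medium with glucose and received 5 mM 4-thiouracil for the last 6 min before harvest. This uracil analog enters RNA as it is transcribed, so the purified labelled fraction reports recent synthesis more than stored RNA. Nothing in WT-aa is tied to the anchor by a tag, and a 30 min group without rapamycin was not analysed here. Exposure to the drug and 30 further minutes of culture therefore cannot be told apart.

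Every value below is a log2 ratio of the sample over a reference pool, unless it is called a change. The pool was itself labelled RNA of untreated WT-aa cells, so ratios at 0 min lie near 0. The sample was in Cy3 on the arrays of replicate a and in Cy5 on those of replicate b. A change is the mean ratio at 30 min minus the mean ratio at 0 min, with the standard error (SE) of a limma fit over all 20 slow-course arrays, and a feature passed at an adjusted p under 0.05. A feature is a gene, or a probe with no gene symbol. The design text speaks of independent cultures. The labels do not say whether letters a and b are such cultures or a dye swap of the same culture. The array titles of a and b share a running number. If both arrays came from the same culture, the p-values measure technical spread only.

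As background, rapamycin stops TORC1 kinase by way of the Fpr1 protein, and a strain without FPR1 and with tor1-1 lacks the usual growth arrest. In ordinary yeast, loss of TORC1 activity lowers ribosome production and raises stress genes, nitrogen-scavenging genes and the retrograde pathway. The retrograde pathway, run by Rtg1 and Rtg3, makes enzymes of the first steps of the TCA cycle and so feeds the synthesis of glutamate. Biotin is the cofactor of carboxylases, and baker's yeast makes it from a precursor that it imports. The iron regulon, under Aft1 and Aft2, takes up iron when it is scarce.

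The 4 arrays were not equally tight. The SD of log2 ratios over features was 0.279 on replicate a and 0.129 on replicate b at 30 min, against 0.107 and 0.116 at 0 min. Replicate a at 30 min was thus the wide array of the 4. Over 6353 features, the 30 minus 0 difference had an SD of 0.335 between the arrays of replicate a and 0.120 between those of replicate b. The differences of a and b had the same sign for 63.9% of features, and correlated at r = 0.415 across features, which are not independent replicates. The ratios themselves agreed less: the 2 arrays of a group correlated at r = 0.172 at 30 min and -0.208 at 0 min. Of the 69 features whose difference in replicate a lay below -1, 39 also lay below 0 in replicate b, and 0 passed. Median spot signal in the sample channel was 19.6 to 38.8 times the local background on the slow arrays, and 6282 to 6351 features were above background. Calls that changed without replicate a at 30 min, and list medians without it, are therefore given below.

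**Figure D1:**
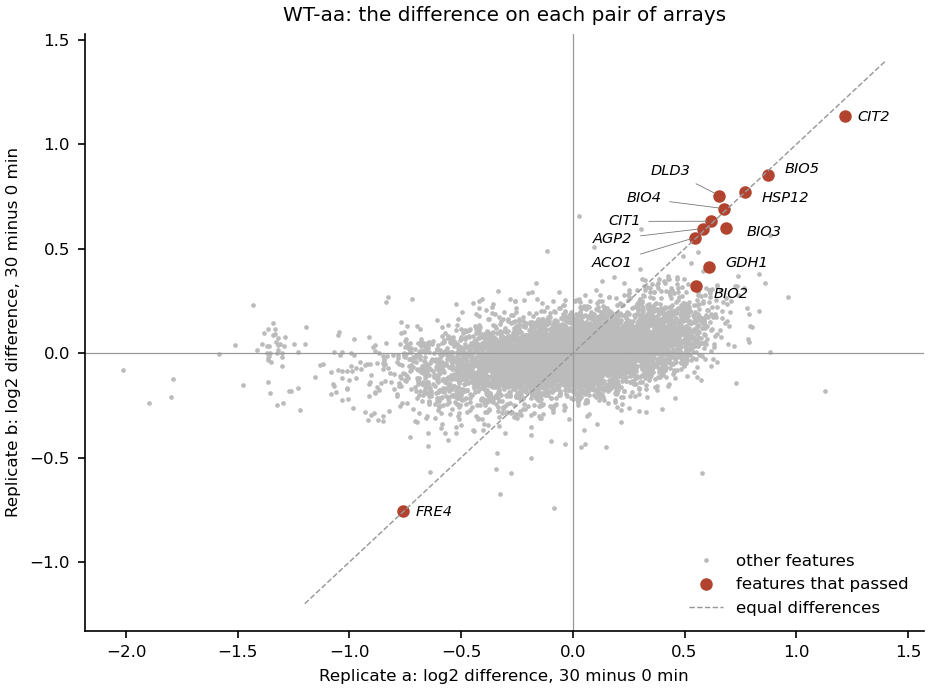
The log2 difference (30 minus 0 min) in WT-aa between the arrays of replicate a (x axis) and of replicate b (y axis), a point per feature. The 12 features that passed (red) lie near the dashed line of equal differences, while the other features (grey) spread along the x axis, with an SD of 0.335 on x and 0.120 on y. The test favours features whose replicates agree, so the place of the red points is not separate support.

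Of 6353 features tested, 11 were higher at 30 min than at 0 min (0.173% of features) and 1 was lower (0.0157%). All 12 are named genes. They fall into the retrograde pathway and early TCA cycle (CIT2, DLD3, CIT1, ACO1), biotin synthesis (BIO5, BIO4, BIO3, BIO2), and 4 others (HSP12, AGP2, GDH1 and, lower, FRE4). All 12 lay above background on the 4 arrays with no saturated spot. For each of them the 30 min arrays lay on the same side of the 0 min arrays, without overlap. The test favours such features, so this is not separate support. Without the wide array, 7 passed: CIT2, BIO5, BIO4, BIO3, CIT1, ACO1 and FRE4. Leaving out a 0 min array gave 6 (replicate a) or 7 (replicate b) higher in place of 11, while leaving out replicate b at 30 min gave 661 higher and 732 lower, and leaving out either Hsf1-aa 30 min array gave 33 and 28. Scale normalization between arrays and centring on external control RNA each ended all 12 calls, and a fit of the 4 arrays alone kept only CIT2. Among all features, 725 were higher and 684 lower at an unadjusted p under 0.05.

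**Figure D2:**
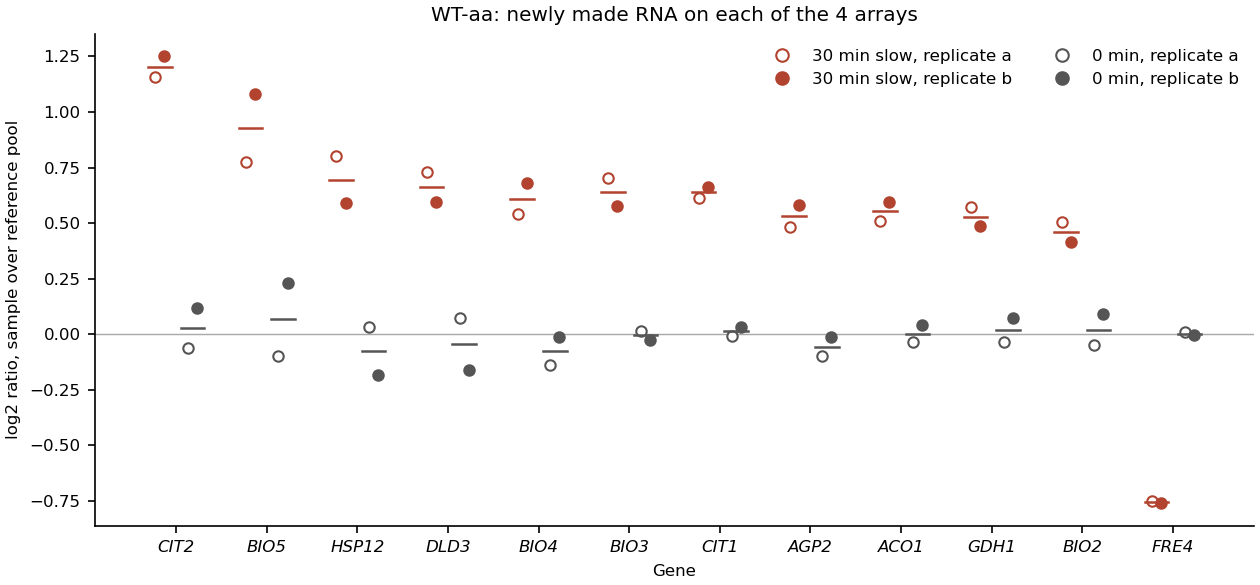
Log2 ratio of sample over reference pool (y axis) on the 4 WT-aa arrays for the 12 genes that passed (x axis), 30 min left of 0 min. Open points are replicate a, filled points replicate b, and bars the means; the 30 min arrays lie above the 0 min arrays for 11 genes and below them for FRE4.

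Of 7 retrograde and early TCA genes, 4 passed as higher, beside 11 of 6353 features (0.173%), and 6 were higher in both replicates. This list, like the others, was chosen with earlier results of these data known. CIT2, the peroxisomal citrate synthase and the classical reporter of the retrograde pathway, had ratios of 1.16 and 1.25 at 30 min (replicates a and b), against -0.06 and 0.12 at 0 min. Its change was 1.18 ± 0.08 (SE; adjusted p = 9.80e-06), or 2.26-fold, the largest of any feature tested. The arrays of each time lay close together, and the gap between times was far wider than the gap within them. The test selects for such a gap, so it is not separate support.

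DLD3, a cytosolic enzyme of the D-lactate dehydrogenase family that is also a target of Rtg1 and Rtg3, stood at 0.73 and 0.60 at 30 min, against 0.08 and -0.16 at 0 min. It rose by 0.71 ± 0.12 (adjusted p = 0.025). Its call was lost without replicate a at 30 min, where the change was 0.76. Without replicate b at 30 min the change was 0.65.

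CIT1 is the mitochondrial citrate synthase. Its ratios were 0.61 and 0.66 at 30 min, against -0.01 and 0.03 at 0 min, a change of 0.63 ± 0.07 (adjusted p = 0.0014). ACO1, the aconitase that acts on the product of Cit1, read 0.51 and 0.60 at 30 min, against -0.04 and 0.04 at 0 min. It changed by 0.55 ± 0.05 (adjusted p = 4.59e-04). For both genes the gap between times was far wider than that between replicates, which the test selects for. Without the wide array the changes were 0.60 for CIT1 and 0.54 for ACO1.

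The other 3 of the 7 retrograde and TCA genes did not pass. IDH1, a subunit of the NAD-dependent isocitrate dehydrogenase, had a change of 0.30 ± 0.09 (adjusted p = 0.163), and PYC1, a pyruvate carboxylase, of 0.24 ± 0.08 (adjusted p = 0.166). IDH2, the partner subunit of IDH1, differed by -0.26 in replicate a and by 0.25 in replicate b, which averaged to -0.00. The median change of the list was 0.55, beside -0.00 over all features, and 0.54 without replicate a at 30 min. Further down the respiratory route, 0 of 33 genes of the respiratory chain and ATP synthase passed, and their median was -0.11 (-0.08 without that array). Of the 33, 19 (57.6%) were lower in both replicates, beside 31.3% of all features. At an unadjusted limma p under 0.05, 8 (24.2%) were lower, beside 10.8%.

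Biotin genes were the other group with several calls, 4 of 5, beside 0.173% of all features called higher. BIO5, which imports a biotin precursor, was at 0.78 and 1.08 at 30 min, against -0.10 and 0.23 at 0 min. It rose by 0.86 ± 0.10 (adjusted p = 0.00113), or 1.82-fold. Replicate b read higher than a at both times, so the 30 minus 0 differences within a and within b were nearly equal (0.87 and 0.85).

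BIO3 converts that precursor by an aminotransferase step, BIO4 then closes a ring as dethiobiotin synthetase, and BIO2 inserts the sulfur as biotin synthase, an iron-sulfur enzyme. BIO4 had 0.54 and 0.68 at 30 min, against -0.14 and -0.01 at 0 min, and BIO3 had 0.70 and 0.58, against 0.02 and -0.02. They rose by 0.68 ± 0.08 (adjusted p = 0.0012) and 0.64 ± 0.07 (adjusted p = 8.36e-04). BIO2 moved least of the 4, with 0.51 and 0.41 at 30 min, against -0.05 and 0.09 at 0 min. Its change was 0.44 ± 0.07 (adjusted p = 0.0178), and without the wide array it was 0.39 with an adjusted p of 0.327. VHT1, the transporter for biotin itself, differed by 0.12 in replicate a and 0.28 in replicate b and did not pass (0.20 ± 0.06, adjusted p = 0.162). The list median was 0.64, and 0.63 without the wide array.

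BIO5, BIO4 and BIO3 are neighbours on chromosome XIV in the R64 gene order, and BIO2 and VHT1 are on chromosome VII. The genes on either side of the trio did not pass: HOL1, a membrane transporter gene next to BIO5, changed by 0.06 ± 0.06 (adjusted p = 0.548), and MNT4, a mannosyltransferase gene next to BIO3, by 0.15 ± 0.08 (adjusted p = 0.286). FRE4, which fell, lies just beyond MNT4.

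HSP12, which encodes a small membrane-associated stress protein, rose by 0.77 ± 0.12 (adjusted p = 0.0228). It read 0.80 and 0.59 at 30 min, against 0.03 and -0.18 at 0 min. Replicate a read higher than b at both times, and the 30 minus 0 differences within a and within b were both 0.77. The spots were dim, at 6.59 times background in replicate a at 30 min, and without that array the adjusted p was 0.404 at a change of 0.67.

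HSP12 was the only one of 29 general stress genes of Msn2 and Msn4 to pass. The list median was 0.21, and 17 of 29 (58.6%) were higher in both replicates, beside 32.6% of all features. GPH1 (glycogen phosphorylase), XBP1 (a stress-induced repressor), TMA10 and HXK1 (a hexokinase) had changes of 0.61, 0.60, 0.52 and 0.45, with adjusted p-values of 0.149, 0.136, 0.193 and 0.156. For GPH1 the 30 min ratios were 0.76 and 0.35, against -0.08 and -0.03 at 0 min, so replicate a carried more of it, as it did for XBP1 (0.81 and 0.18, against -0.05 and -0.15) and TMA10 (0.75 and 0.12, against 0.03 and -0.20). Other members lay lower, such as PNC1, a nicotinamidase, at -0.40. Without replicate a at 30 min the list median was 0.10.

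AGP2 and GDH1 completed the genes that rose. AGP2, a plasma membrane protein that controls the uptake of carnitine and polyamines, had 0.48 and 0.58 at 30 min, against -0.10 and -0.01 at 0 min, a change of 0.59 ± 0.08 (adjusted p = 0.00439). GDH1, the NADP-dependent glutamate dehydrogenase that builds glutamate from ammonium, had 0.57 and 0.49 at 30 min, against -0.04 and 0.07 at 0 min, a change of 0.51 ± 0.08 (adjusted p = 0.0228). Both were higher on both arrays, but neither call held without replicate a at 30 min (adjusted p = 0.0684 and 0.411). Of 21 nitrogen catabolite repression genes, which serve to scavenge poor nitrogen sources, 0 passed and the median was 0.06, with and without replicate a at 30 min. At an unadjusted limma p under 0.05, 6 of the 21 (28.6%) were higher, beside 11.4% of all features, and 0 were lower. The largest changes there were 0.42 for the regulator GAT1, 0.41 for DAL2, 0.34 for CPS1 and 0.30 for GLN1, the glutamine synthetase (adjusted p = 0.2, 0.165, 0.206 and 0.215). Replicate a held most of the first 3, with differences of 0.79, 0.68 and 0.59 in a, and 0.05, 0.15 and 0.09 in b. For DAL2 and CPS1 the low array was replicate a at 0 min (-0.52 and -0.54, against 0.04 and -0.07 in b). GLN1 differed by 0.09 in a and 0.51 in b.

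FRE4 was the gene that fell. It encodes a reductase that frees iron from siderophores, the iron carriers of microbes. FRE4 had -0.75 and -0.76 at 30 min, against 0.01 and -0.00 at 0 min, so the replicates nearly coincided at each time. The change was -0.76 ± 0.06 (adjusted p = 3.87e-05), so the level at 0 min was 1.69-fold that at 30 min, and the call held without the wide array (adjusted p = 0.0013). Its spots were dim, at 3.91 and 5.10 times background at 30 min, against 8.27 and 10.4 at 0 min.

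Of 23 iron regulon genes tested, FRE4 included, FRE4 alone passed. Among the 23, 15 (65.2%) were lower in both replicates and 0 were higher in both, beside 31.3% and 32.6% of all features. At an unadjusted p under 0.05, 12 were lower (52.2%, beside 10.8% of features). The list median was -0.23, and 8 of the 23 lay above 0. Without replicate a at 30 min the list median was -0.18, and 21 of 23 lay below 0, beside 3175 of 6353 features. Some of the 21 were close to 0, such as HMX1 (-0.02) and FTH1 (-0.01).

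TIS11, whose RNA-binding protein promotes decay of transcripts for iron-consuming proteins, was nearest the threshold: -0.63 and -0.49 at 30 min, against 0.01 and 0.08 at 0 min, a change of -0.60 ± 0.11 (adjusted p = 0.0526, and 0.525 without replicate a at 30 min). FTR1 and FET3 are the permease and the oxidase of high-affinity iron uptake. FTR1 had -0.80 and -0.23 at 30 min, against -0.07 and 0.17 at 0 min (adjusted p = 0.0898, and 0.994 without that array), and FET3 had -0.69 and -0.12, against -0.13 and 0.29 (adjusted p = 0.155). The 30 min arrays lay below the 0 min arrays for FTR1, while for FET3 they overlapped. ARN1 (a siderophore transporter), FIT2 (a cell wall mannoprotein that holds siderophores) and CCC2 (a copper transporter of the Golgi) changed by -0.55, -0.50 and -0.35 (adjusted p = 0.141, 0.155 and 0.0877). FRE2, FRE3 and FRE5, relatives of FRE4, were at 0.06, 0.09 and 0.01. The relatives FRE1 and FRE6 were lower, at -0.13 and -0.18 without replicate a at 30 min, and -0.20 and -0.14 without replicate b.

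**Figure D3:**
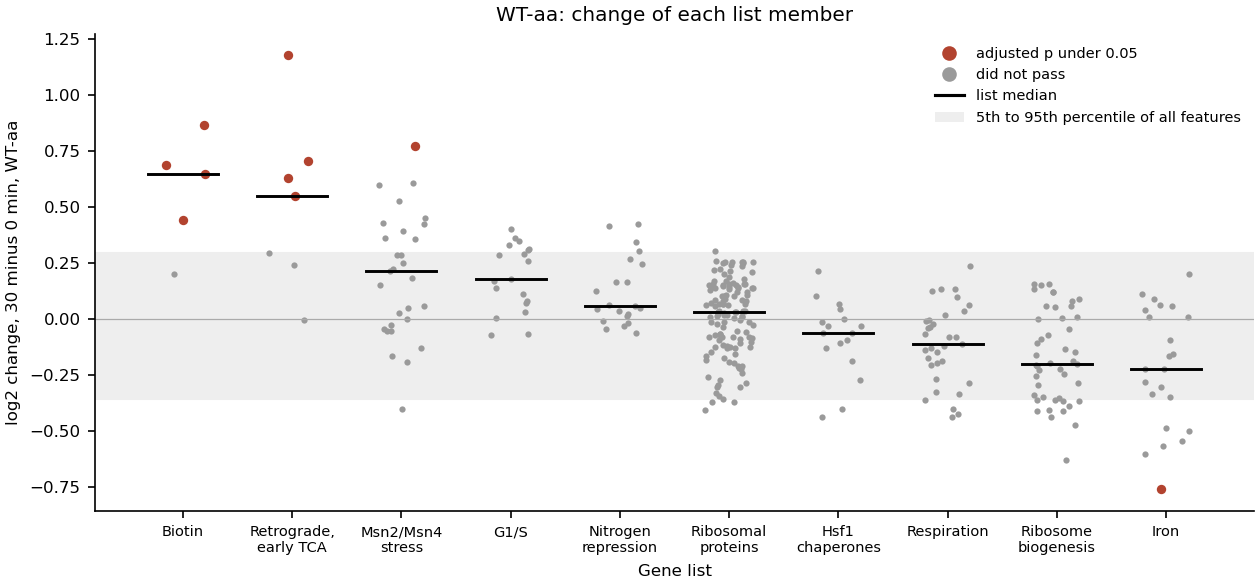
Log2 change from 0 to 30 min in WT-aa (y axis) of each tested member of 10 gene lists (x axis), with members that passed in red, others in grey, list medians as black bars, and the 5th to 95th percentile range of all features shaded. Biotin and retrograde genes lie highest (medians 0.64 and 0.55) and iron genes lowest (median -0.23).

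Ribosome biogenesis genes, which assemble and process rRNA, had a median change of -0.20, and 0 of 46 passed. They were lower in both replicates for 31 of 46 (67.4%, beside 31.3% of all features), and 20 were lower at an unadjusted p under 0.05 (43.5%, beside 10.8%). The largest members were IMP3, RRP5, UTP20 and UTP4, all factors of small-subunit assembly, at -0.63, -0.48, -0.44 and -0.41 (adjusted p = 0.18, 0.136, 0.162 and 0.187). RRP5 had -0.50 and -0.31 at 30 min, against 0.07 and 0.07 at 0 min. IMP3 had -0.84 and -0.40, against 0.20 and -0.18, so replicate a again held the larger difference. Without that array the list median was -0.11, beside 0.00 over all features, and 35 of 46 lay below 0, beside 3175 of 6353 features. The 126 cytosolic ribosomal protein genes had 0 calls and a median of 0.03, which turned to -0.03 without replicate a at 30 min.

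Genes of the G1/S transition had a median of 0.18 and 0 calls among 19. In both replicates 14 (73.7%) were higher and 0 were lower, beside 32.6% and 31.3% of all features. With all arrays, 10 of 19 were higher at an unadjusted p under 0.05 (52.6%, beside 11.4% of features). Without replicate a at 30 min the median was 0.16, and 18 of 19 lay above 0, beside 3178 of 6353 features. SWI4 (a transcription factor of G1/S), CLN2 (a G1 cyclin), POL30 (the sliding clamp) and TOS4 changed by 0.40, 0.36, 0.35 and 0.33 (adjusted p = 0.149, 0.113, 0.162 and 0.162). CLN2 had 0.31 and 0.38 at 30 min, against -0.19 and 0.16 at 0 min.

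The remaining falls with the smallest p-values among named genes did not pass either, with adjusted p-values of 0.0636 to 0.0933. OLE1, the fatty acid desaturase, had -0.38 and -0.33 at 30 min, against -0.04 and 0.15 at 0 min (-0.41 ± 0.08). KRE33, an rRNA acetyltransferase, and UTP10, a factor of early ribosome assembly, were at -0.51 ± 0.10 and -0.41 ± 0.09. PRM7, a pheromone-regulated gene read by 2 probes (-0.36 and -0.54), was at -0.45 ± 0.09, and GIM5, a prefoldin subunit, and CIN1, a tubulin folding factor, at -0.36 ± 0.07 and -0.24 ± 0.05.

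None of the genes altered to build the strains passed, of 7 tested. HSF1 had 0.11 and 0.17 at 30 min, against 0.06 and 0.08 at 0 min (0.07 ± 0.23, adjusted p = 0.872). In Hsf1-aa, whose HSF1 is tagged, the same probe read -1.40 and -2.41 at 30 min, against -2.31 and -1.89 at 0 min. TOR1 changed by 0.24 ± 0.09 (adjusted p = 0.187), with 0.35 and -0.00 at 30 min, against -0.06 and -0.07, and RPL13A, the anchor, by -0.26 ± 0.14 (adjusted p = 0.258). LEU2, URA3, HIS3 and LYS2 were at -0.01, 0.04, 0.05 and -0.20, and a value for FPR1 is not given here. Of 17 Hsf1 chaperone targets, 0 passed, with a median of -0.06 (-0.02 without replicate a at 30 min). All 4 MATalpha markers were bright (MF(ALPHA)1 at 511 to 1012 times background), whereas the 6 MATa markers reached at most 6.72 times background.

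The same step in Hsf1-aa used separate arrays, and 44 features (0.693%) passed there. Of the 12 WT-aa genes, 12 changed in the same direction in Hsf1-aa, beside 42.7% of all features, and 9 of the 12 passed there too. CIT2 changed by 1.18 in WT-aa and 0.85 ± 0.08 in Hsf1-aa (adjusted p = 1.04e-04), where it started higher, at 0.51 and 0.47 at 0 min. BIO3 gave 0.64 in WT-aa and 0.72 ± 0.07 in Hsf1-aa (adjusted p = 1.27e-04). FRE4 gave -0.76 in WT-aa and -0.64 ± 0.06 in Hsf1-aa (adjusted p = 1.04e-04). The 12 were picked for passing in WT-aa, so the sizes in the 2 strains are not an even comparison. In Hsf1-aa the list medians were 0.46 for biotin, 0.43 for retrograde and 0.17 for G1/S genes, against 0.64, 0.55 and 0.18 in WT-aa. They were -0.03 for ribosome biogenesis, 0.01 for iron and 0.02 for general stress genes, against -0.20, -0.23 and 0.21 in WT-aa.

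The 3 that missed the threshold in Hsf1-aa were DLD3 (0.55 ± 0.12, adjusted p = 0.0608), AGP2 (0.35 ± 0.08, adjusted p = 0.0761) and GDH1 (0.13 ± 0.08, adjusted p = 0.997). GDH1 had -0.03 and 0.19 at 30 min in Hsf1-aa, against -0.09 and -0.01 at 0 min, so its groups there lay close. The difference between strains was tested as an interaction: 7 features passed (0.11%) and 0 of the 12 were among them, with GDH1 at 0.38 (WT-aa minus Hsf1-aa, adjusted p = 0.387). The 7 included the Hsf1 targets BTN2, FES1, HSP42 and HSC82, which changed by -0.03, -0.03, -0.19 and 0.10 in WT-aa, against -1.69, -0.83, -1.40 and -0.69 in Hsf1-aa. SSC1 (0.06 in WT-aa, against -0.67 in Hsf1-aa), an unnamed probe and TIS11 made up the rest.

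**Figure D4:**
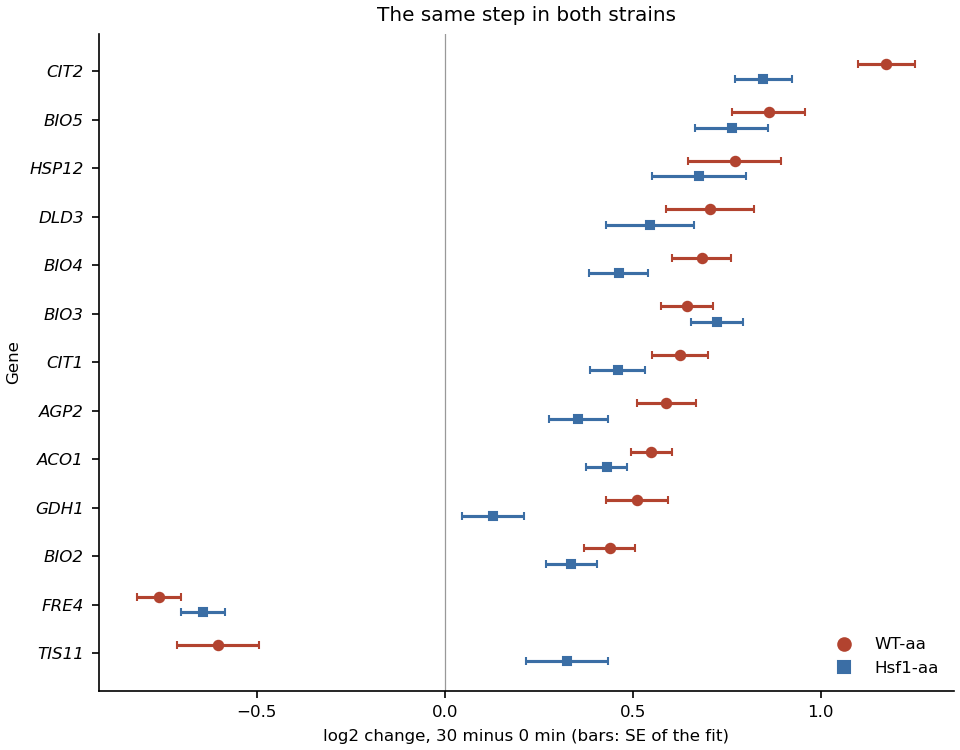
Log2 change from 0 to 30 min (x axis, bars give the SE of the fit) for the 12 genes that passed in WT-aa and for TIS11 (y axis), WT-aa (red circles) above Hsf1-aa (blue squares). The 12 lie on the same side of 0 in both strains, and TIS11 is at -0.60 in WT-aa and 0.33 in Hsf1-aa.

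Values at the other WT-aa times share the 0 min arrays and so are given side by side, as changes from 0 min at 15, 30, 60 and 90 min. CIT2 was at 0.76, 1.18, 1.22 and 1.11, with its lowest value at 15 min. DLD3 was at 0.44, 0.71, 0.70 and 0.68, and CIT1 at 0.61, 0.63, 0.51 and 0.56. ACO1 read highest at 30 min, at 0.46, 0.55, 0.36 and 0.17.

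Biotin genes had their highest values at 90 min. None passed in the direct comparison of 60 with 30 min, and 90 with 30 min was not tested. BIO5 was at 0.72, 0.86, 1.28 and 1.59, BIO4 at 0.55, 0.68, 0.90 and 1.04, BIO3 at 0.50, 0.64, 0.92 and 1.21, and BIO2 at 0.26, 0.44, 0.50 and 0.59. VHT1, which missed the threshold at 30 min, was at 0.14, 0.20, 0.41 and 0.64. FRE4 was at -0.58, -0.76, -0.75 and -1.44, and TIS11 at -0.24, -0.60, -0.86 and -1.27.

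HSP12 was high only at the first times, at 0.78, 0.77, -0.09 and 0.30. In the direct comparison of 60 with 30 min it fell by 0.86 ± 0.12 on the log2 scale (adjusted p = 0.0278). Of the 12 genes it was the only one to pass in that comparison. AGP2 was at 0.55, 0.59, 0.45 and 0.44, and GDH1 at 0.59, 0.51, 0.19 and 0.34. The median of the general stress list was 0.38, 0.21, 0.01 and 0.12 at the 4 times, and that of the iron list -0.05, -0.23, -0.26 and -0.44.

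**Figure D5:**
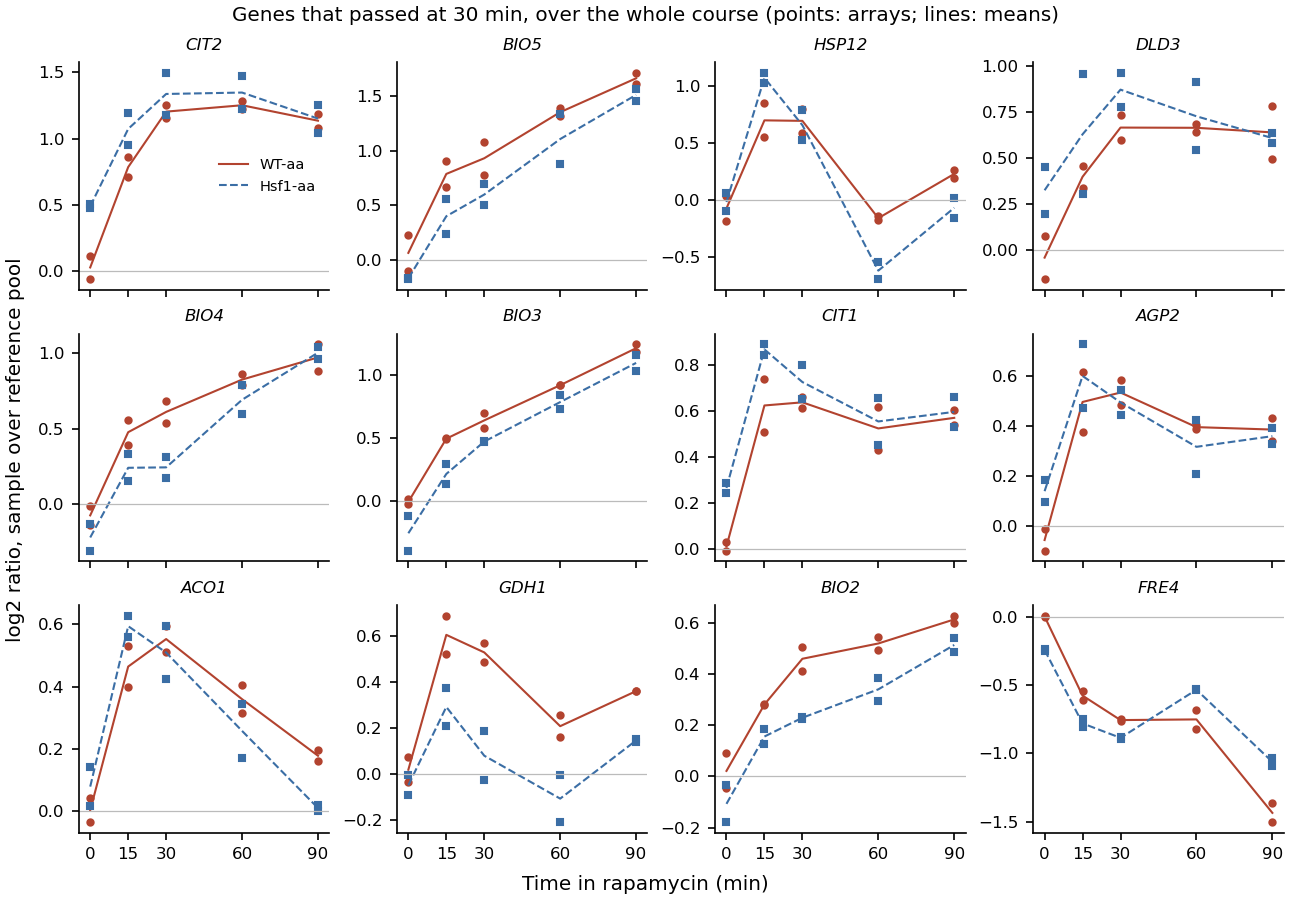
Log2 ratio of sample over reference pool (y axis) against time in rapamycin in min (x axis) for the 12 genes, WT-aa in red and Hsf1-aa in blue, with a point per array and lines through the means. In WT-aa CIT2 is about as high at 60 and 90 min as at 30 min, the 4 biotin genes are highest at 90 min, and HSP12 is near 0 at 60 min.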

How the data were processed

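Per the file headers, the deposited scanner output gives each spot's foreground and local background intensity in both dyes, on a linear scale and unsubtracted. Per the labels, channel 1 is Cy5 and channel 2 Cy3. A further deposited table holds log2 Cy5 over Cy3 ratios as processed by the authors, by a method not given in the sources used here. Its columns correlated with the ratios below at r = 0.602 to 0.971, had medians of -0.00704 to 0.0192, and served as an alternative.

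Intensities were background-corrected (normexp, offset 50) and loess-normalised within arrays, control spots at weight 0. Ratios were turned to sample over pool, and all spots of a gene averaged, different probes included (15 genes have several). A shift shared by all genes cannot be seen after loess. Of 6388 yeast probes, 5326 carry a symbol, 58 of them updated. Features 2 background SD above background on at least 2 of the 20 slow arrays were tested, or 6353 of 6373. Limma 3.58.1 (R 4.3.3) fitted 10 groups and a dye term, the same factor as the replicate letter (9 residual degrees of freedom, 12.5 with the prior). Tests were two-sided, with Benjamini-Hochberg adjustment over all features and a threshold of 0.05. The median SE of a change was 0.0926, and 2 arrays a group limit the precision.

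Named were the up to 15 features that changed most in each direction among those that passed, filled to 10 with the smallest p-values where fewer passed, every list member that passed, up to 4 members of each list with the largest change, and the strain genes. Genes given outside this rule, such as the neighbours HOL1 and MNT4, further list members, and the genes that differed between strains, were chosen after their values were seen. The comparison and the lists were chosen with earlier results of these data known. Replicates were checked for duplication: the arrays of a group correlated at r = 0.172 at 30 min and -0.208 at 0 min.

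Members without a probe under their name (among them DUR1,2 and SSA2) or failing the filter (SIT1 and URA6) were left out. Of the lists, those not described in the text had 0 calls: zinc (15 tested, median -0.01), Yap1 (23, -0.07), Gcn4 (26, 0.09), other heat-shock (16, -0.04), phosphate (14, -0.05), sulfur (21, 0.03), hexose transport (5, -0.06), glycolysis (16, -0.03), pyrimidine (11, -0.00), histones (10, 0.05), pheromone (20, 0.04), cell wall (9, -0.02), ergosterol (23, 0.00), proteasome (33, -0.06), Pdr1 (12, 0.07) and copper (7, -0.04). The code was tested on simulated data.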

Additional observations from a re-analysis of the deposited data

Results flagged for a closer look

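TIS11 passed the test of a strain difference in the change from 0 to 30 min. The interaction was -0.93 ± 0.15 on the log2 scale (WT-aa minus Hsf1-aa, limma adjusted p = 0.0479). Among the features that passed, TIS11 tied for the largest adjusted p. With external control centring, or with the 8 arrays of 0 and 30 min fitted alone, 0 features passed, so its call was lost. In WT-aa the ratios were -0.63 and -0.49 at 30 min, against 0.01 and 0.08 at 0 min. In Hsf1-aa they were -0.30 and -0.31 at 30 min, against -0.82 and -0.44 at 0 min, so the strains were farther apart at 0 min than at 30 min. The changes were -0.60 in WT-aa and 0.33 in Hsf1-aa, and neither passed by itself.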

How the results depend on the processing

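None of the 12 genes that passed changed direction under any of the 35 alternatives. CIT2 kept its call under 33 of them, BIO4, BIO3, CIT1, ACO1 and FRE4 under 32, and BIO5 under 31. HSP12, AGP2 and BIO2 kept it under 27, and DLD3 and GDH1 under 25. The 12 were picked for passing on these arrays. Many alternatives only left out an array of another group, which cannot turn the direction, so these tallies are not separate support. The counts (11 higher, 1 lower) moved more. With no replicate block (no dye term) 7 were higher, and BIO5, DLD3, AGP2 and GDH1 lost their calls. Array weights gave 6 higher, and the 4 arrays fitted alone gave 1 higher (CIT2) and 0 lower. Without background correction, with subtraction, and with an intensity trend, 2 were lower. The deposited table gave 17 higher and 7 lower, with all 12 genes among them, and 30 min arrays against the pool gave 159 and 160. Scale normalization gave 0 and 0 by limma, with adjusted p up to 0.151 for the 12 genes. Centring on the external control RNA also gave 0 and 0; it moved the median of all features to -0.28, and turned the medians of the general stress, G1/S and nitrogen lists to -0.08, -0.12 and -0.11. Omitting single arrays gave 6 to 661 higher, 1 to 732 lower, and 2 to 566 for the interaction (7 with all arrays). The highest counts came without replicate b at 30 min of WT-aa or, for the interaction, of Hsf1-aa, and the cause was not tested. Without replicate a of WT-aa at 30 or at 0 min 6 were higher, and 7 without replicate b at 0 min. Without either or both Hsf1-aa 30 min arrays (both: chosen after seeing the data) 33 were higher and 28 lower, and without either Hsf1-aa 0 min array 3 were lower, and without either WT-aa 60 min array 2. The interaction count was 2 without Hsf1-aa 0 min a, 3 without WT-aa 30 min a, and 4 without Hsf1-aa 0 min b, Hsf1-aa 30 min a, WT-aa 0 min b, or either replicate of WT-aa at 15 or 90 min. By setting, it was 4 with no replicate block, 0 with external control centring, 1 with scale normalization, 18 with the deposited table, 3 with array weights and 0 with 8 arrays. Promoter motifs were not searched.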
